A study of Mus musculus with 26 samples.

Results

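The genes described here are the transcription factors that switch on fat synthesis in liver, and the proteins that control the factor SREBP. They are 10 of the 55401 genes counted in the series and were chosen by symbol: Srebf1, Mlxipl, Mlx, Nr1h3, Nr1h2, Pparg, Ppargc1b, Scap, Insig1 and Insig2. All 10 passed the filter on low counts. Liver RNA-seq was compared between male C57BL/6 mice treated with UCMSC-Exos (8 libraries) and untreated HFD mice (9 libraries). UCMSC-Exos are exosomes, small membrane vesicles shed by cells, from the cells the labels call UCMSC. Both groups ate a high-fat diet, which the series design also describes as high in cholesterol, from 4 weeks of age for 18 weeks. Treated mice received tail-vein injections every 72 hours for 8 weeks, and the labels give the untreated mice no injection. Exosomes, repeated injection and any cage or cohort shared by a group therefore cannot be told apart. The mice carried no engineered allele that the labels name, and no group on another diet was compared here. The labels number the replicates as separate mice. The LSCR set of 9 samples was not analysed here.

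SREBP-1c, encoded by Srebf1, is made as a precursor anchored in the endoplasmic reticulum. SCAP escorts the precursor to the Golgi, where proteases free its active part, and INSIG1 and INSIG2 hold SCAP back when sterols are plentiful. ChREBP, encoded by Mlxipl, responds to sugar and binds DNA as a pair with MLX. LXR-alpha (Nr1h3) and LXR-beta (Nr1h2) are oxysterol receptors that raise Srebf1 transcription in liver. PPAR-gamma (Pparg) is the fat cell regulator that fatty liver also expresses, and PGC-1-beta (Ppargc1b) is a coactivator of SREBP-1 and LXR. SREBP and ChREBP are controlled by cleavage and by location in the cell as well as by transcription, and messenger RNA does not measure those steps.

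Of the 10 genes, 2 were higher (Mlxipl and Scap) and 1 was lower (Pparg) in UCMSC-Exos livers by edgeR's quasi-likelihood test at an adjusted p of 0.05. Over all 16238 genes tested, 20.2% passed, 9.73% higher and 10.4% lower, so the share among these 10 genes was near the background. Scaled to library totals alone, 737 genes were higher and 2961 lower (22.8% of those tested), against 1580 and 1694 with trimmed-mean (TMM) scaling, and the median log2 fold change of all genes was −0.19 in place of −0.02. The median log2 fold change of the 10 genes was 0.21. The groups' ranges did not overlap for Pparg alone among the 10, against 1.3% of all genes tested in either direction and 0.807% lower in UCMSC-Exos livers. Without UCMSC-Exos 9, Mlxipl joined Pparg, against 8.26% of all genes. The share of all genes passing was 9.54% with surrogate variables (terms for hidden variation), 12.7%, 12.2% and 35.7% without UCMSC-Exos 2, 3 and 9, and 41.9% without UCMSC-Exos 9 and untreated HFD 3 and 9 together, and counts under those settings are read against these shares. DESeq2's Wald test called 25.0% of all genes and limma voom with quality weights 47.5%.

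Some libraries stood apart. On the first principal component (40.8% of variance) UCMSC-Exos 9 lay at 49.6, inside the untreated range of 2.23 to 51.7, whereas the other UCMSC-Exos libraries lay between −63.2 and −30.6. Levels are given as CPM, the reads of a gene scaled to the library total after TMM adjustment. Untreated HFD 3 held 9420 CPM of 5 summed pancreatic acinar markers. These summed to at most 0.225 CPM in any UCMSC-Exos library and had an untreated median of 0.0557 CPM. Untreated HFD 9 held 6330 CPM of 4 summed skeletal muscle markers, against at most 1.71 CPM in UCMSC-Exos livers. Defining liver markers were present in every library, Alb at 28100 to 54600 CPM in UCMSC-Exos livers and 23200 to 43300 CPM in untreated livers. All 6 hepatocyte markers rose (2 of 6 passed with surrogate variables, all 6 at an unadjusted p below 0.05), and their sum ran from 36800 to 69600 CPM (median 63700) in UCMSC-Exos livers and from 31000 to 51100 CPM (median 39800) in untreated livers. The lowest UCMSC-Exos sum was that of UCMSC-Exos 9. Among 5 stellate cell markers 3 fell, Dcn by 0.68, Des by 3.46 and Colec11 by 0.60 on the log2 scale. Lrat and Reln did not pass. With surrogate variables 3 of the 5 passed, and DESeq2 and voom each called 2. Des reached 681 CPM in 1 untreated library. The stellate sum was highest, at 1330 CPM, in untreated HFD 9, the library with skeletal muscle markers. The part of muscle RNA in the fall of Des was not tested. The 5 cholangiocyte markers had a median log2 fold change of −1.0 and did not pass (0 at an unadjusted p below 0.05 with edgeR, 0 calls with DESeq2 and 4 with voom). Of 7 macrophage markers 1 rose (Timd4), as did 1 of 5 endothelial (Stab2) and 1 of 5 lymphocyte markers (Cd4). The part of these cell markers in the results below was not tested. In bulk tissue, fewer cells of a type and less RNA per cell cannot be told apart.

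Levels of different genes were compared as CPM per kilobase of exon. In UCMSC-Exos livers Srebf1 stood highest at 119 ± 18.2 (SD, n = 8), followed by Insig1 at 111 ± 36, Insig2 at 72.0 ± 14.1, Mlxipl at 58.0 ± 8.54 and Nr1h3 at 50.5 ± 6.73. Mlx, Nr1h2 and Scap lay close together at 15.3, 14.4 and 14.3, Pparg stood at 7.44 and Ppargc1b at 1.43. In untreated livers Srebf1 averaged 116 ± 15.1 CPM per kilobase (SD, n = 9), Insig1 83.0 ± 14.8, Insig2 62.8 ± 8.81, Nr1h3 43.5 ± 5.41 and Mlxipl 36.4 ± 8.07. Below them came Nr1h2 at 15.1, Mlx at 13.1, Pparg at 12.1, Scap at 11.5 and Ppargc1b at 1.57. The median gene tested had 3.02 CPM per kilobase in UCMSC-Exos livers and 3.21 in untreated livers, so 9 of the 10 factors and regulators lay above it. Neighbours in this order mostly overlapped: Srebf1 exceeded Insig1 in 5 of 8 UCMSC-Exos livers and in 9 of 9 untreated livers, while Insig1 exceeded Insig2 in 7 of 8 UCMSC-Exos livers and in 8 of 9 untreated livers. A clear step separated Mlxipl from Nr1h2, whose ranges did not overlap in either group, and likewise Scap from Ppargc1b. The order of the means changed at 3 places between the groups. Nr1h2 exceeded Mlx in 3 of 8 UCMSC-Exos livers and in 8 of 9 untreated livers. Mlxipl exceeded Nr1h3 in 7 of 8 UCMSC-Exos livers, and Nr1h3 exceeded Mlxipl in 7 of 9 untreated livers. Scap exceeded Pparg in 8 of 8 UCMSC-Exos livers, and Pparg exceeded Scap in 6 of 9 untreated livers.

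**Figure D1:**
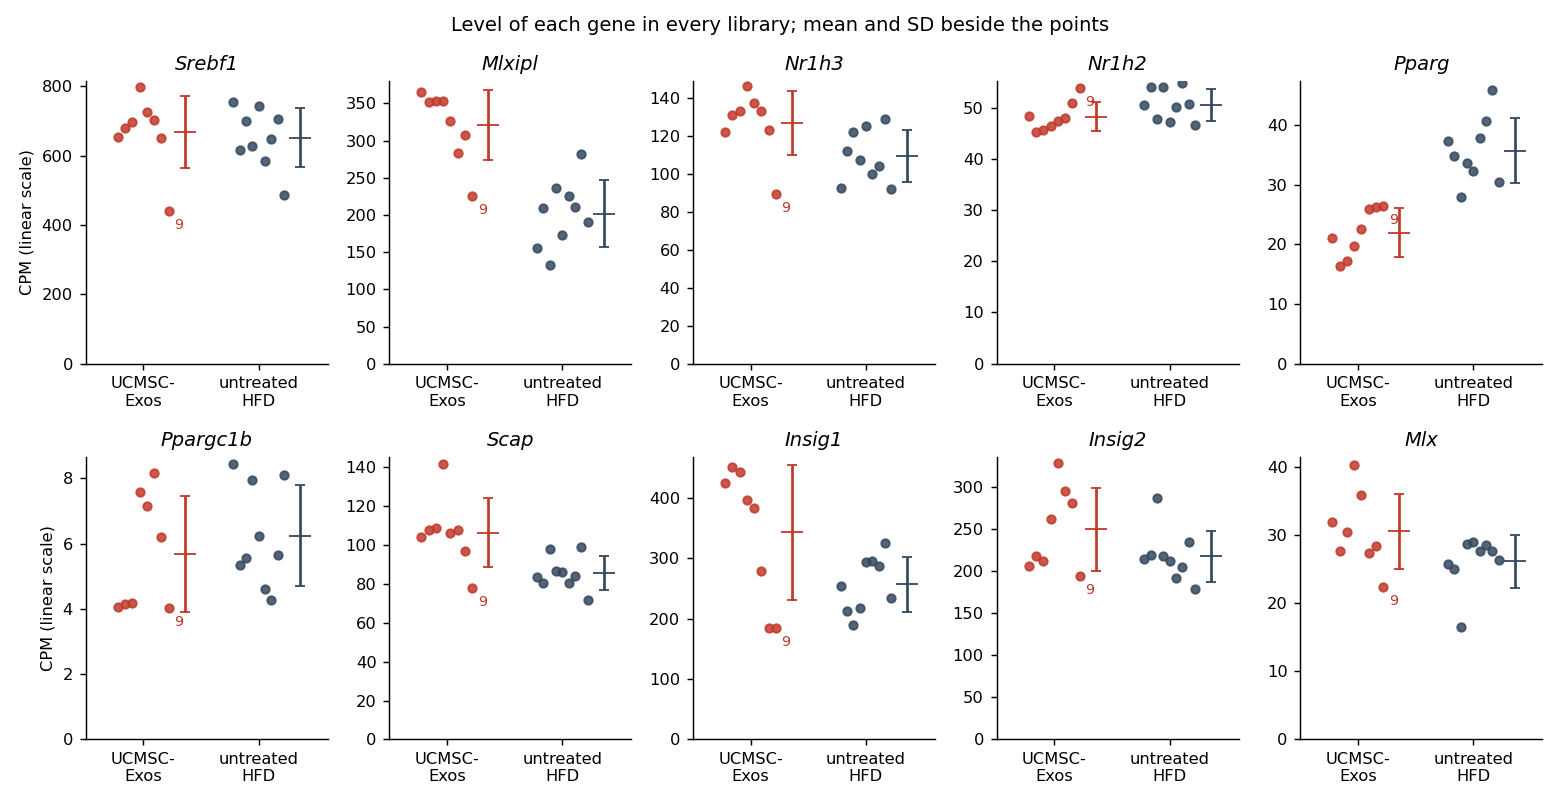
CPM of the 10 genes in each library, UCMSC-Exos (8 points) left of untreated HFD (9 points) in each panel, with the group mean and SD. Pparg was the only gene of the 10 whose groups did not overlap (16.3 to 26.4 CPM in UCMSC-Exos livers, 28 to 45.9 CPM in untreated livers), and Srebf1 points interleaved.

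Srebf1 (ENSMUSG00000020538.15, mm10 chr11:60199089-60222581, minus strand) did not pass the test. It had a lowest value of 441 CPM, a median of 689 and a highest value of 797 CPM in UCMSC-Exos livers, against 487, 647 and 754 CPM in untreated livers. The groups overlapped almost entirely, and the lowest UCMSC-Exos value belonged to UCMSC-Exos 9. It averaged 669 ± 103 CPM in UCMSC-Exos livers (SD, n = 8) and 652 ± 84.8 CPM in untreated livers (SD, n = 9). The log2 fold change was 0.04 ± 0.11 (SE; edgeR adjusted p = 0.837), with a 95% interval of −0.18 to 0.25. Its sign turned with surrogate variables (−0.19) and with library totals (−0.14), without passing in either. The counts add SREBP-1a and SREBP-1c, which share all but their first exon, so the isoforms cannot be told apart. Srebf2, the sterol-regulating relative, also did not pass (−0.12, adjusted p = 0.294).

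Mlxipl, the gene of ChREBP (ENSMUSG00000005373.13, chr5:135089890-135138382, plus strand), rose. In UCMSC-Exos livers it had a lowest value of 226 CPM, a median of 340 and a highest value of 366 CPM, against 133, 209 and 282 CPM in untreated livers. Of the 8 treated livers, 7 exceeded the highest untreated one, untreated HFD 8, and the exception was UCMSC-Exos 9. Means were 321 ± 47.3 CPM in UCMSC-Exos livers (SD, n = 8) and 202 ± 44.7 CPM in untreated livers (SD, n = 9), 1.59-fold apart, for a log2 fold change of 0.67 ± 0.13 (SE; edgeR adjusted p = 0.00188). The call held in all 17 fits that left out 1 library, and the estimate was smaller with surrogate variables (0.40, adjusted p = 0.0269). RefSeq gives Mlxipl 2 starts, of which 1 lies 17001 bases downstream of the annotated start. Gene counts cannot separate transcripts from the 2 starts. The RefSeq promoter window at the gene's annotated start, 250 bases before to 50 after it (GRCm38.p6 chr5:135089640-135089939, plus strand), is shown because it holds an E-box, the core letters that MLX pairs, MYC relatives and USF can bind. Capitals mark the E-box CACGTG, 98 bases upstream of the start, a CCAAT box read on the other strand (ATTGG) and GC boxes (GGGCGG).
Mlxipl: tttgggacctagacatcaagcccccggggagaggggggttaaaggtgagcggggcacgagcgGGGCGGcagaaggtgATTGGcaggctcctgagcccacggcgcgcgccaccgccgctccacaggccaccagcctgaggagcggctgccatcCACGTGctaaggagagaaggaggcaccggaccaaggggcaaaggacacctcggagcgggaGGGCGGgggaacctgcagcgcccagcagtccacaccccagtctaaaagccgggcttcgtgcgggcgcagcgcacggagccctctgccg

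Mlx, the obligate partner of ChREBP (ENSMUSG00000017801.15, chr11:101087277-101092207, plus strand), did not pass. It ran from 22.4 to 40.3 CPM (median 29.4) in UCMSC-Exos livers and from 16.5 to 29.0 CPM (median 27.6) in untreated livers. The treated values reached higher, with 4 of 8 above every untreated one, and the 16.5 CPM of untreated HFD 3 lay far below the rest of its group. The log2 fold change was 0.22 ± 0.11 (SE; edgeR adjusted p = 0.164) and turned to −0.01 with surrogate variables. Of the exon bases of Mlx, 19.3% are also exon of Psmc3ip on the opposite strand, and counting without strand leaves reads there unassigned. Within each library, the log2 ratio of Mlxipl to Mlx counts does not depend on scaling between libraries. That ratio was 3.40 ± 0.18 (SD, n = 8) in UCMSC-Exos livers and 2.93 ± 0.24 (SD, n = 9) in untreated livers. The difference of 0.47 passed a two-sided exact permutation test over 24310 splits (p = 0.000699, adjusted over 5 ratios 0.0035), with 8 of 8 treated livers above the untreated median and 5 of 8 above the untreated maximum. 

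Of the promoter windows of these genes, E-boxes were found in those of Mlxipl, Scap, Insig1 and Mlx, 4 of the 9 genes with a RefSeq window. The stretches of 46 bases around them are shown because they put the shared letters of 4 of these genes side by side (GRCm38.p6, plus strand, E-box in capitals). They lie at chr5:135089772-135089817 (Mlxipl), chr9:110333296-110333341 (Scap), chr5:28071291-28071336 (Insig1) and chr11:101087230-101087275 (Mlx).
Mlxipl: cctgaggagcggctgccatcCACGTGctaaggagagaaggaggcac
Scap: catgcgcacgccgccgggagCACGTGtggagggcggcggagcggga
Insig1: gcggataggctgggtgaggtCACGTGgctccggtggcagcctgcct
Mlx: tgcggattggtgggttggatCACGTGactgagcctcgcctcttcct
Counted by window, 5 of the 18 windows of these genes held CACGTG, which reads alike on both strands, and the 2 overlapping Scap windows share theirs, against 7.15% of all 32851 windows of the same length. Mlxipl and Scap rose, and Insig1 and Mlx did not pass. The SRE core TCACNCCAC, read on both strands, was found in 1 member window, at another start of Mlxipl, against 1.24% of all windows. CCAAT was found in 8 of 18 windows against 37.4% of all, and GGGCGG in 10 of 18 against 35.7%, both read on both strands. The ChoRE, DR4 and DR1 patterns, read on both strands, matched no member window, against 0.119%, 0.0822% and 0.222% of all windows. A ChoRE or a DR4 can contain an E-box.

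The LXR genes did not pass. Nr1h3 (LXR-alpha; ENSMUSG00000002108.10, chr2:91184061-91202834) ran from 89.6 to 146 CPM (median 132) in UCMSC-Exos livers and from 92.1 to 129 CPM (median 107) in untreated livers. Of the 8 treated livers 5 exceeded every untreated one, while UCMSC-Exos 9 lay below all of them. The log2 fold change was 0.21 ± 0.09 (SE; edgeR adjusted p = 0.102), and it passed without UCMSC-Exos 9 (0.27, adjusted p = 0.009). Nr1h2 (LXR-beta; ENSMUSG00000060601.13, chr7:44549616-44553951) was the steadiest of the 10, with a coefficient of variation of 5.95% over UCMSC-Exos livers and 6.13% over untreated livers. It averaged 48.2 ± 2.87 CPM (SD, n = 8) in UCMSC-Exos livers and 50.6 ± 3.10 CPM (SD, n = 9) in untreated livers, a log2 fold change of −0.07 ± 0.05 (SE; edgeR adjusted p = 0.365). The log2 ratio of Nr1h3 to Nr1h2 counts was 1.39 ± 0.29 in UCMSC-Exos livers and 1.10 ± 0.20 in untreated livers. The difference of 0.28 did not pass over the 5 ratios (two-sided exact permutation p = 0.0369, adjusted 0.0923) and did without UCMSC-Exos 9 (0.37, adjusted p = 0.00503).

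Pparg (ENSMUSG00000000440.12, chr6:115360951-115490399, plus strand) fell, and of the 10 genes it separated the groups most fully. In UCMSC-Exos livers it had a lowest value of 16.3 CPM, a median of 21.8 and a highest value of 26.4 CPM, against 28, 34.8 and 45.9 CPM in untreated livers. All 8 treated livers lay below all 9 untreated livers, UCMSC-Exos 9 included, although it had the highest treated value. Pparg averaged 22 ± 4.07 CPM in UCMSC-Exos livers (SD, n = 8) and 35.7 ± 5.48 CPM in untreated livers (SD, n = 9), a ratio of 0.615. The log2 fold change was −0.70 ± 0.11 (SE; edgeR adjusted p = 0.000493). It stayed between −0.74 and −0.65 when any 1 library was left out, passed in all 17 such fits, and was −0.66 with surrogate variables. Adipocyte RNA was low in both groups, and Adipoq, Lep and Plin1 had a median of 0 CPM in each. The 6 adipocyte markers summed to 2.2 to 29.9 CPM (median 5.04) in UCMSC-Exos livers and 4.72 to 29.9 CPM (median 11.9) in untreated livers. Cidea, 1 of the 6, is also on the list of PPAR-gamma targets below. The part of adipocyte RNA in the fall of Pparg was not tested. Gene counts cannot separate the PPAR-gamma isoforms. The window at the start nearest to the gene's annotated 5′ end (GRCm38.p6 chr6:115360894-115361193, plus strand) is shown as the contrast to the E-box windows: of the patterns searched it held a single GC box, read on the other strand (CCGCCC, in capitals).
Pparg: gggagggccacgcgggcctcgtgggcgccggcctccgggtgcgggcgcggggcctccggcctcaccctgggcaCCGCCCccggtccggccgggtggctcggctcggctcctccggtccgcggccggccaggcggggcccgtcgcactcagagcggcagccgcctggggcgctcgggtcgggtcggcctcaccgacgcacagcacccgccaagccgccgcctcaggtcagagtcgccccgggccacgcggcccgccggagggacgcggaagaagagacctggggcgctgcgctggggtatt

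Ppargc1b, the gene of PGC-1-beta (ENSMUSG00000033871.14), was the lowest of the 10 and did not pass. It ran from 4.04 to 8.18 CPM in UCMSC-Exos livers and from 4.27 to 8.44 CPM in untreated livers, with log2 fold change −0.13 ± 0.19 (SE; edgeR adjusted p = 0.640). In the treated group UCMSC-Exos 1, 2, 3 and 9 lay between 4.04 and 4.18 CPM, below every untreated liver, and the others between 6.21 and 8.18 CPM. The 95% interval of the log2 fold change ran from −0.50 to 0.23.

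**Figure D2:**
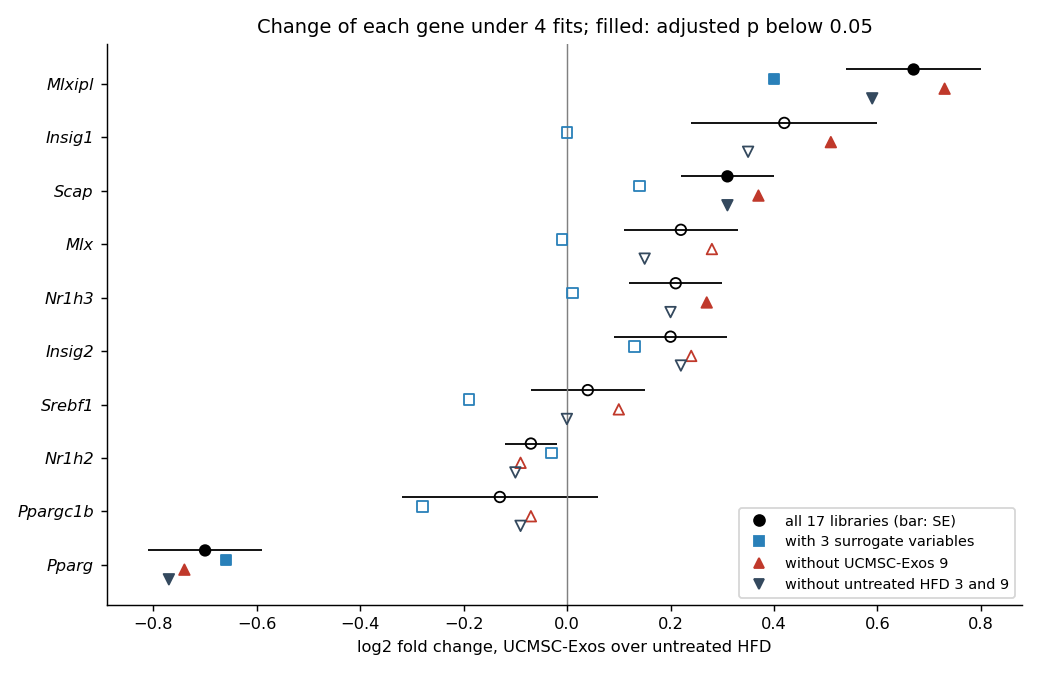
Log2 fold change of each of the 10 genes, UCMSC-Exos over untreated HFD, from all 17 libraries (bars are SE), with 3 surrogate variables, without UCMSC-Exos 9 and without untreated HFD 3 and 9; filled symbols pass an adjusted p of 0.05. Over all libraries Mlxipl (0.67), Scap (0.31) and Pparg (−0.70) passed, and with surrogate variables Scap lay at 0.14 and did not.

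Among the SREBP control proteins, Scap rose and the 2 Insig genes did not pass. Scap (ENSMUSG00000032485.14, chr9:110333288-110384950, plus strand) had a lowest value of 77.8 CPM, a median of 107 and a highest value of 142 CPM in UCMSC-Exos livers, against 71.8, 84.2 and 99.0 CPM in untreated livers. Of the 8 treated livers 6 exceeded every untreated one, and UCMSC-Exos 5 was the highest. Scap averaged 107 ± 17.7 CPM in UCMSC-Exos livers (SD, n = 8) and 85.6 ± 8.53 CPM in untreated livers (SD, n = 9). Its log2 fold change was 0.31 ± 0.09 (SE; edgeR adjusted p = 0.0232), a 1.24-fold difference. The call was lost with surrogate variables (0.14, adjusted p = 0.228) and with library totals (0.14, adjusted p = 0.131), where the median gene was at −0.19. Of the exon bases of Scap, 13.2% are also exon of 5830462I19Rik on the opposite strand. The window at its annotated start (GRCm38.p6 chr9:110333038-110333337, plus strand) is shown for its E-box, 28 bases into the transcript, followed by a GC box, both in capitals.
Scap: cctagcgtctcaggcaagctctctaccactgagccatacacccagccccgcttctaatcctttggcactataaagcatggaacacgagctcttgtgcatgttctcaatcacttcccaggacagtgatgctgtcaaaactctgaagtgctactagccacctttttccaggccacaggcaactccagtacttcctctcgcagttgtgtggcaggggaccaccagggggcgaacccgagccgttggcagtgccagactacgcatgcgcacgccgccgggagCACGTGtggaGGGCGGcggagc

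Insig1, a retention protein that is itself a target of SREBP (ENSMUSG00000045294.11, chr5:28071363-28078662), varied more widely among UCMSC-Exos livers than the other 9 genes did. It had a lowest value of 184 CPM, a median of 389 and a highest value of 450 CPM in UCMSC-Exos livers, against 190, 254 and 325 CPM in untreated livers. The treated livers split widely: UCMSC-Exos 1, 2, 3, 5 and 6 lay between 383 and 450 CPM, above every untreated liver, and UCMSC-Exos 8 and 9 both lay at 184 CPM, below every untreated liver. The coefficient of variation was 32.5% in UCMSC-Exos livers and 17.9% in untreated livers. The log2 fold change was 0.42 ± 0.18 (SE; edgeR adjusted p = 0.105). It passed without UCMSC-Exos 9 (0.51, adjusted p = 0.0191) or without UCMSC-Exos 8 (adjusted p = 0.0419), and was −0.00038 with surrogate variables (adjusted p = 0.999). Insig2 (ENSMUSG00000003721.14, chr1:121304353-121332589), whose liver transcript is known to respond to fasting and insulin, ran from 195 to 329 CPM (median 240) in UCMSC-Exos livers and from 179 to 287 CPM (median 215) in untreated livers. Its log2 fold change was 0.20 ± 0.11 (SE; edgeR adjusted p = 0.214). The highest Insig2 values came from UCMSC-Exos 6 and 7, not from the livers with the highest Insig1.

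The balance of the SREBP control genes was compared within each library. The log2 ratio of Scap to the sum of Insig1 and Insig2 counts was −2.46 ± 0.20 (SD, n = 8) in UCMSC-Exos livers and −2.47 ± 0.11 (SD, n = 9) in untreated livers, and the difference of 0.01 did not pass (exact permutation p = 0.937). The log2 ratio of Insig2 to Insig1 was −0.40 ± 0.63 in UCMSC-Exos livers and −0.23 ± 0.38 in untreated livers (difference −0.17, exact permutation p = 0.502). It lay between −1.06 (UCMSC-Exos 3) and 0.61 (UCMSC-Exos 8) in treated livers, and between −0.62 and 0.60 in untreated livers. The log2 ratio of Srebf1 to Srebf2 was 3.37 ± 0.38 in UCMSC-Exos livers and 3.21 ± 0.21 in untreated livers (difference 0.16, exact permutation p = 0.302), and it passed without UCMSC-Exos 9 (0.28, adjusted p = 0.0342). Adjusted over the 5 ratios these p-values were 0.937, 0.627 and 0.503.

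**Figure D3:**
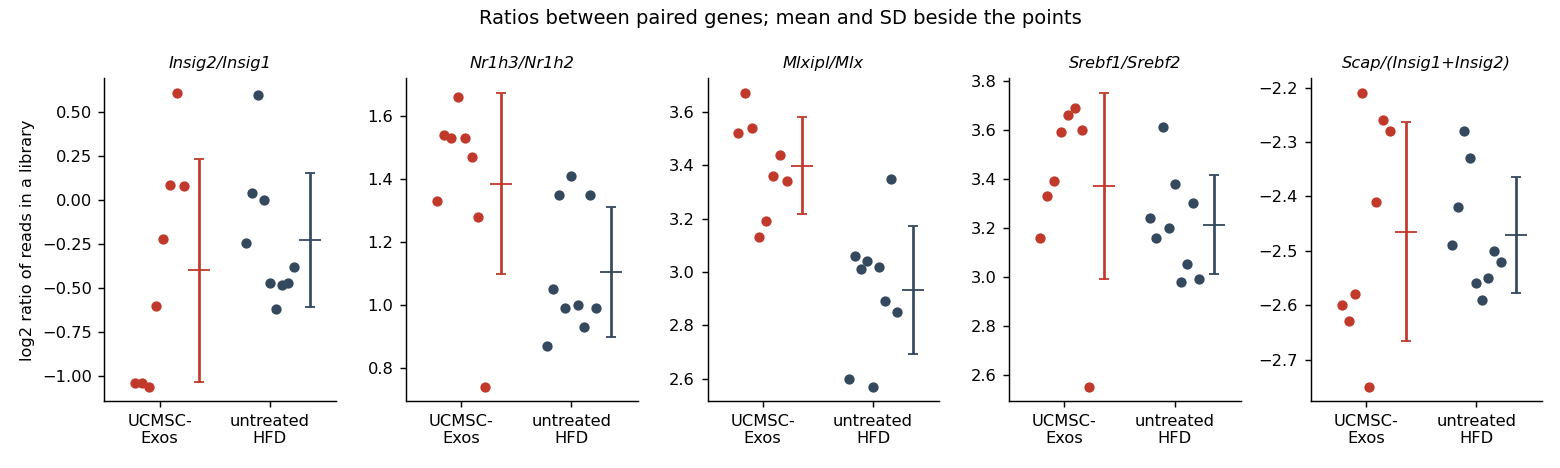
Log2 ratio of counts within each library for 5 pairs of genes, UCMSC-Exos (8 points) left of untreated HFD (9 points), with the mean and SD beside the points. The group means of Mlxipl over Mlx differed by 0.47, with overlapping ranges, and those of Scap over the sum of Insig1 and Insig2 differed by 0.01.

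In the machinery around SREBP, the share of genes passing was near the background of all genes. Of 13 genes of SREBP processing and turnover, which include the site proteases Mbtps1 and Mbtps2 and the coat proteins that carry SCAP, 3 rose and none fell (none at an unadjusted p below 0.05 in edgeR, none by DESeq2 and 1 by voom), at a median log2 fold change of 0.18 against −0.02 over all genes. They were Ube2g2, a ubiquitin-conjugating enzyme of endoplasmic reticulum protein breakdown, at 0.37, and the COPII coat proteins Sec24a at 0.39 and Sec23a at 0.22. With surrogate variables only Ube2g2 of these 3 passed (0.33, adjusted p = 0.00969), and Sec23a and Sec24a were lost in 7 and 4 of the 17 fits that left out 1 library. Of 18 partners and coregulators, 3 rose and 2 fell, at a median of 0.04. Rxra, the retinoid X receptor that pairs with LXR and PPAR-gamma, rose by 0.40. Lpin1, a phosphatidate phosphatase and coregulator, rose by 0.94 ± 0.26 (edgeR adjusted p = 0.0196), with 8 of 8 treated livers above the untreated median. Nr0b2, the repressor SHP, rose by 0.54, and Rxrg, a minor retinoid X receptor at 6.36 CPM in UCMSC-Exos livers and 8.64 CPM in untreated livers, fell by 0.44. With surrogate variables Rxrg passed (adjusted p = 0.0061), and Rxra (0.15), Lpin1 (0.65) and Nr0b2 (0.57) did not (adjusted p = 0.127, 0.241 and 0.102).

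Many listed lipogenic targets of SREBP-1 fell, and Srebf1 itself did not pass. Each target was placed on 1 list only, and control of these genes by the other factors was not tested. Of 18 lipogenic targets of SREBP-1, 11 fell and none rose, against 10.4% of all genes lower, at a median log2 fold change of −0.46. DESeq2 called 11 lower and voom 12 (either way over all genes, 25.0% and 47.5%), and none was higher by either tool or at an unadjusted p below 0.05 in edgeR. Scd1, which desaturates fatty acids, fell by 1.56 ± 0.21 in log2 units (edgeR adjusted p = 0.000107). Fasn, the fatty acid synthase, had 409 to 1160 CPM in UCMSC-Exos livers and 1280 to 2450 CPM in untreated livers, without overlap, and fell by 1.04 ± 0.19 (edgeR adjusted p = 0.00132). Me1, which supplies NADPH, fell by 0.70, and Elovl6, a fatty acid elongase, by 0.78. Each of these 4 passed with surrogate variables and in all 17 fits that left out 1 library. As a description with no test, the log2 ratio of Fasn to Srebf1 counts averaged 0.31 in UCMSC-Exos livers and 1.43 in untreated livers, and 7 of 8 treated livers lay below the untreated minimum. For Scd1 to Srebf1 the averages were 2.84 in UCMSC-Exos livers and 4.38 in untreated livers, again with 7 of 8 below the minimum. Acaca, acetyl-CoA carboxylase, gave −2.02 in UCMSC-Exos livers and −1.57 in untreated livers, with 4 of 8 below it. 

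Few sterol targets of SREBP-2 passed. Of 23, 1 rose and 2 fell, where 20.2% of all genes passed in either direction, at a median of −0.04. Hmgcs1, an early enzyme of the mevalonate pathway, fell by 0.40, Pmvk, phosphomevalonate kinase, fell by 0.51, and Ebp, a sterol isomerase, rose by 0.60. With surrogate variables none was higher and 3 were lower (1 higher and 7 lower at an unadjusted p below 0.05; DESeq2 called 1 higher and voom 3). In that fit Ebp was at 0.20 (adjusted p = 0.0973), Pmvk at −0.49 (adjusted p = 0.0662) and Hmgcs1 at −0.33 (adjusted p = 0.0246). Without untreated HFD 3 and 9 and UCMSC-Exos 9, 5 of the 23 passed, and with library totals 7.

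The listed ChREBP targets, which leave out the genes of the SREBP-1 list, were not uniformly higher in UCMSC-Exos livers, the group with the higher mean Mlxipl. Of 13 glycolytic and fructolytic targets, 1 rose and 2 fell, at a median of 0.07. That share was near the 20.2% of all genes that passed. Pklr, the liver pyruvate kinase and a textbook ChREBP target, had 149 to 290 CPM in UCMSC-Exos livers and 224 to 373 CPM in untreated livers. It fell by 0.55 ± 0.12 (edgeR adjusted p = 0.00622), opposite in sign to Mlxipl. The log2 ratio of Pklr to Mlxipl counts averaged −0.65 in UCMSC-Exos livers and 0.59 in untreated livers, with 7 of 8 treated livers below the untreated minimum, as a description. Gckr, the glucokinase regulator, rose by 0.30. Fgf21, a hormone secreted by liver, fell by 1.22 and lost the call in 12 of the 17 fits that left out 1 library (highest adjusted p = 0.0784). With surrogate variables Pklr alone of these 3 passed (−0.44, adjusted p = 0.0266).

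LXR sterol targets went both ways. Of 11, 2 rose and 2 fell, where 20.2% of all genes passed in either direction, at a median of 0.04. Abcg5 and Abcg8, which together form the sterol exporter of the bile canaliculus, rose by 0.65 and 0.83. Abcg1, a cholesterol exporter, fell by 0.48, and Pltp, the phospholipid transfer protein, by 0.61. With surrogate variables in edgeR 0 of the 11 passed, with 2 at an unadjusted p below 0.05, while DESeq2 called 5 (25.0% of all genes) and voom 7 (47.5% of all genes).

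Targets of PPAR-gamma in steatosis fell with Pparg. Of 9, 6 fell and none rose, against 10.4% of all genes lower, at a median of −0.81. DESeq2 called 6 lower and voom 7, beside 25.0% and 47.5% of all genes in either direction, again with none higher by either tool or at an unadjusted p below 0.05 in edgeR. Cidec, a lipid droplet protein, had 24.5 to 103 CPM in UCMSC-Exos livers and 65.6 to 182 CPM in untreated livers, and fell by 1.14 ± 0.27 (edgeR adjusted p = 0.0095). Cd36, a fatty acid transporter, fell by 0.47 and Plin2, the main droplet coat protein of liver, by 0.45. Aqp7, a glycerol channel, was scarce at 0.864 ± 1.11 CPM (SD, n = 8) in UCMSC-Exos livers and 3.36 ± 1.93 CPM (SD, n = 9) in untreated livers, with log2 fold change −1.93 ± 0.56, and −2.75 without UCMSC-Exos 9. The count was 2 of 9 with surrogate variables, where Cd36 and Aqp7 passed, Cidec was at −0.94 (adjusted p = 0.0602) and 7 of 9 were lower at an unadjusted p below 0.05. Leaving out UCMSC-Exos 3 gave 2 of 9, and leaving out UCMSC-Exos 2 gave 3. Without untreated HFD 3 and 9, the livers with pancreatic and muscle markers, 4 of 9 passed, against 20.6% of all genes. Cidec to Pparg, as a log2 ratio of counts, averaged 1.26 in UCMSC-Exos livers and 1.79 in untreated livers, and 3 of 8 treated livers lay below the untreated minimum.

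**Figure D4:**
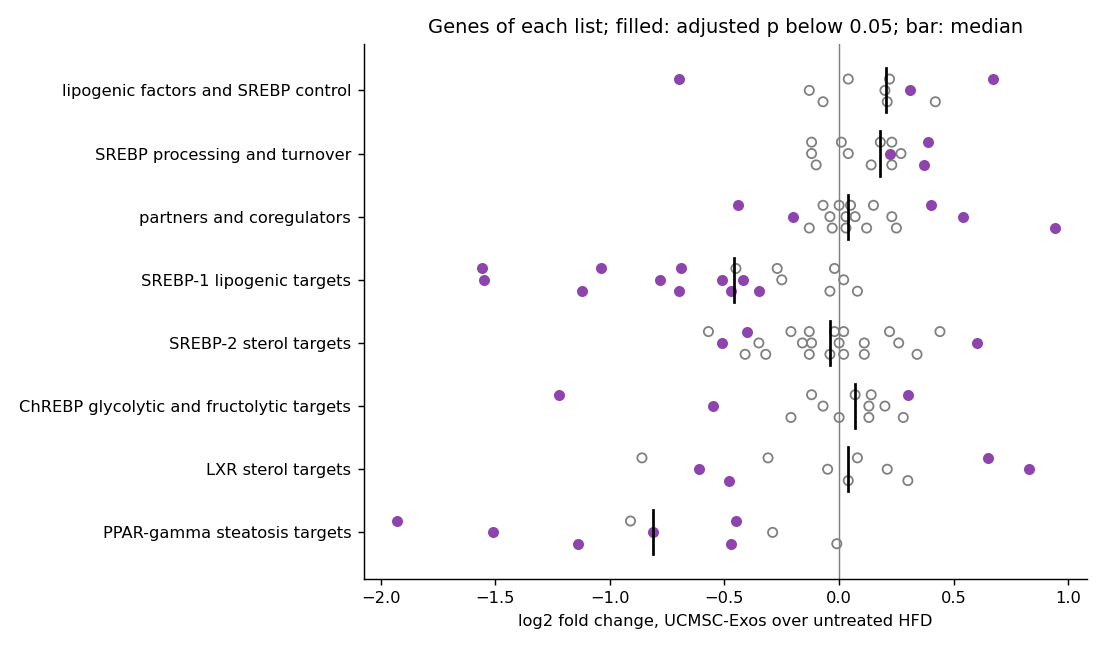
Log2 fold change, UCMSC-Exos over untreated HFD, of the 10 genes (top) and of every gene of their pathway and target lists, with each list's median as a bar and filled points for genes passing an adjusted p of 0.05. The listed SREBP-1 lipogenic targets (median −0.46) and PPAR-gamma steatosis targets (median −0.81) lay mostly below 0. The listed SREBP-2 sterol, ChREBP glycolytic and fructolytic, and LXR sterol targets lay around 0.

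Whether a factor and a target varied together among mice of 1 group was examined on log2 CPM with exact permutation tests. P-values were adjusted over the 8 relations computed, of which 6 are given. Pparg and Cidec varied together in both groups. In UCMSC-Exos livers Pearson's r was 0.86 (exact p = 0.0096, adjusted 0.0192) and Spearman's rho 0.90 (exact p = 0.00456, adjusted 0.0182), and r was 0.85 without the 2 livers farthest from the median Pparg. In untreated livers r was 0.92 (exact p = 0.000394, adjusted 0.00315) and rho 0.93 (exact p = 0.00075, adjusted 0.006), and r was 0.87 without the 2 farthest. Srebf1 and Fasn showed no relation that passed, with r = −0.21 (exact p = 0.601, adjusted 0.687) and rho = −0.05 (exact p = 0.935, adjusted 0.948) in UCMSC-Exos livers. There r was 0.32 without the 2 farthest, UCMSC-Exos 9 and 5. In untreated livers r was −0.04 (exact p = 0.923, adjusted 0.923) and rho 0.03 (exact p = 0.948, adjusted 0.948), and r was −0.39 without the 2 farthest. Mlxipl and Pklr also gave none that passed. In UCMSC-Exos livers r was −0.37 (exact p = 0.357, adjusted 0.476) and rho 0.05 (exact p = 0.935, adjusted 0.948). Without the 2 farthest, UCMSC-Exos 9 and 7, r was 0.63, the opposite sign. In untreated livers r was 0.56 (exact p = 0.116, adjusted 0.186) and rho 0.65 (exact p = 0.0666, adjusted 0.133), and r was 0.48 without the 2 farthest. No label gives a batch within which these could be repeated.

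**Figure D5:**
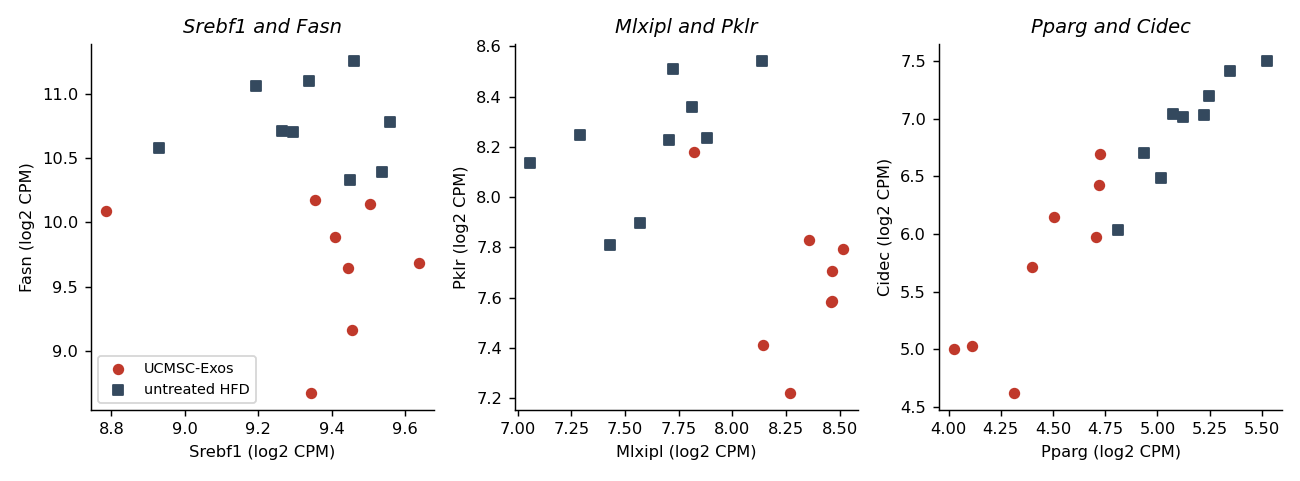
Log2 CPM of a target against log2 CPM of its factor or regulator in each library, UCMSC-Exos and untreated HFD in separate colours, for Srebf1 and Fasn, Mlxipl and Pklr, and Pparg and Cidec. Pparg and Cidec formed a rising band in both groups (r = 0.86 in UCMSC-Exos livers and 0.92 in untreated livers), and Fasn lay lower in UCMSC-Exos livers at the same Srebf1 level.

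The genes most like each member were sought among 13785 other genes with a mean of at least 1 CPM, by Pearson's r of log2 CPM deviations from the group means over the 17 libraries. These are descriptions over libraries that share scaling and composition. Pparg was most like St5 (0.93), Cidec (0.88) and Paqr7 (0.87). Cidec is on its target list, and its rank draws on the same values as the relation of Pparg and Cidec above. Srebf1 was most like Gpt (0.96), Fetub (0.94) and Gnat1 (0.94), and Nr1h3 most like Shmt2 (0.96), Pgrmc1 (0.95) and Ldhd (0.95). Mlxipl came nearest to Car1 (0.87), Gucd1 (0.87) and Mug-ps1 (0.86), and Mlx to Nprl2, Slc25a45 and Galt (0.93 each). Scap came nearest to Smarcd2 (0.94), Ppp6r1 (0.93) and Pex26 (0.92). Insig1 was closest to Proser2 (0.92), the heat shock gene Hspa1b (0.92) and Txndc11 (0.91), and Insig2 to Mzt2 (0.90), Ppp2r1b (0.89) and 4930412C18Rik (0.88). Nr1h2 was closest to Ssh1, Ssh3 and 9130019O22Rik (0.84 each), and Ppargc1b to Cir1 (0.85), Gbp7 (0.84) and Serhl (0.83). No listed lipogenic target of SREBP-1 was among the 3 genes nearest to Srebf1, and no listed ChREBP target among those nearest to Mlxipl. With only 3 genes named out of 13785, such an absence says nothing about a relation.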

How the data were processed

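Liver RNA-seq counts came from 1 deposited table. The tools in the submitters' processing notes are Subread 2.0.2, featureCounts, HISAT2 2.2.1 and fastp 1.3.3, with build mm10. The deposited counts, per the file headers, are whole reads over exons of GENCODE vM25 by featureCounts 2.1.1 in paired mode, both mates counted, without strand or multi-mapping reads, and they were not normalized. Totals were 32.9 to 36.1 M reads per library. Of 55401 genes, 55141 IDs matched a symbol. Columns were matched to samples by library name, and 1 per-sample column that matched none was not used. The labels plan 9 mice per group and give no batch.

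edgeR 4.0.16 (R 4.3.3) kept genes by filterByExpr (minimum count 10), scaled libraries by TMM and ran a robust two-sided quasi-likelihood F test, with Benjamini-Hochberg adjustment over all tested genes and a threshold of 0.05. CPM use effective library sizes, and log2 CPM a prior count of 2. The SE of an edgeR log2 fold change was derived from that change and its F statistic. The 95% intervals take a normal multiplier of this SE, so they are somewhat narrow for groups of this size. Ratios add 0.5 to each count and were tested by exact permutation. P-values measure the spread between these samples. Members and lists were chosen with earlier results of these data known. Named genes are the members, in each list up to 4 passing genes of smallest p, the 3 genes most like each member, and the partners in relations and ratios, of which 1 is not reported here. Acaca in a ratio was chosen after its values were seen. Other settings tried were upper quartile and RLE scaling, library totals, no filter, at least 1 CPM in 8 samples, a replicate block, 3 surrogate variables (sva 3.50.0), leaving out libraries, DESeq2 1.42.0 and limma 3.58.1 voom with quality weights. Library totals, and leaving out 3 libraries together, were added after seeing the data. Promoter windows are RefSeq's on GRCm38.p6. Statistical steps were tested on simulated counts with few genes changed. There edgeR recovered 37.3% of log2 changes of 0.5, 78.8% of changes of 1 and 87.7% of changes of 2. A gene that did not pass may therefore still have changed by a small amount. No replicate pair agreed within sampling noise.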

Additional observations from a re-analysis of the deposited data

Results flagged for a closer look

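A single library lay far from the rest of its group in 5 of 40 sets of values checked. Chance flags about 1 in 20 such sets, and 4 of the 5 share 1 library. Srebf1 was at 441 CPM in UCMSC-Exos 9, against 650 to 797 CPM in the other UCMSC-Exos livers, and Nr1h3 at 89.6 CPM, against 122 to 146 CPM. In the same library the log2 ratio of Nr1h3 to Nr1h2 counts was 0.74, against 1.28 to 1.66, and that of Srebf1 to Srebf2 was 2.55, against 3.16 to 3.69. Mlx was at 16.5 CPM in untreated HFD 3, the library with pancreatic acinar RNA, against 25.0 to 29.0 CPM in the other untreated livers.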

How the results depend on the processing

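Of 110 alternative fits of the 10 genes besides those leaving out 1 library, 96 kept direction and side of the threshold, as did all 15 alternatives of the ratios, whose pseudocounts were also 0 and 10 counts, and the 6 relations with RLE scaling. With surrogate variables, Srebf1 was at −0.19, Insig1 at −0.00038, Mlx at −0.01 and Scap at 0.14 on the log2 scale, 1 of the 10 was higher, and 1549 genes passed. That fit left 1 passing gene each for processing, partners and ChREBP targets, 0 for LXR targets (of 4, and 4 to 7 when 1 library was left out) and 2 for PPAR-gamma targets. With library totals, Srebf1 was at −0.14 and Scap at 0.14, 1 of the 10 was higher, and 1 processing gene and 7 SREBP-2 targets passed. With voom, Nr1h3 (0.28), Nr1h2 (−0.13) and Insig1 (0.47) passed too, 4 of the 10 were higher and 2 lower, and 9 processing genes, 9 partners, 7 SREBP-2 targets, 7 LXR targets and 7711 genes passed. Without a filter, 3 partners and 3 PPAR-gamma targets passed. Without untreated HFD 3 and 9, Srebf1 was at −0.00041. Without these and UCMSC-Exos 9, Nr1h3 (0.26), Nr1h2 (−0.12), Insig2 (0.27) and Mlx (0.20) passed, 5 of the 10 were higher and 2 lower, and 8 processing genes, 5 SREBP-2 targets, 7 LXR targets and 6716 genes passed. Without the 2 farthest livers, where r was not tested, it was 0.32 (UCMSC-Exos) and −0.39 (untreated) for Srebf1 and Fasn and 0.63 (UCMSC-Exos) for Mlxipl and Pklr. The cause of these moves was not tested.

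With the replicate number as a block, 1 processing gene and 1 partner passed, and 3029 genes in all. Same-numbered libraries correlated between −0.171 and 0.238, so the numbers were not read as pairs.

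Leaving out 1 library gave ranges of −0.01 to 0.10 (Srebf1), 0.61 to 0.74 (Mlxipl), 0.18 to 0.27 (Nr1h3), −0.09 to −0.06 (Nr1h2), −0.74 to −0.65 (Pparg), −0.23 to −0.07 (Ppargc1b), 0.24 to 0.37 (Scap, highest adjusted p = 0.0497), 0.35 to 0.51 (Insig1), 0.13 to 0.25 (Insig2) and 0.16 to 0.28 (Mlx). Of the 10, 2 to 4 were higher and 1 lower. Passing genes numbered 1 to 6 for processing, 4 to 7 for partners, 9 to 12 for SREBP-1, 3 to 5 for SREBP-2, 2 to 4 for ChREBP, 4 to 7 for LXR, 2 to 7 for PPAR-gamma and 2005 (without UCMSC-Exos 3) to 5823 (without UCMSC-Exos 9) over all genes. Ratio differences ran from −0.32 to −0.07 (Insig2 to Insig1), 0.24 to 0.37 (Nr1h3 to Nr1h2), 0.42 to 0.52 (Mlxipl to Mlx), 0.11 to 0.28 (Srebf1 to Srebf2) and −0.03 to 0.05 (Scap to the Insig sum). Aqp7, with a mean below 1 CPM in UCMSC-Exos livers, rests on few reads.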
